A study of Mus musculus with 8 samples.

Results

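The stabilising loop of the circadian clock was examined in epididymal white adipose tissue (eWAT), a visceral fat depot that lies along the epididymis. It comprised 7 genes: the nuclear receptors Nr1d1 (REV-ERBα), Nr1d2 (REV-ERBβ) and Rora (RORα), and the clock genes Arntl (also named Bmal1), Clock, Npas2 and Cry1. These 7, of 22180 genes that had a probe set annotated to a single symbol, were chosen by family and function with earlier KO and WT values of clock genes in these same mice in view, so their KO against WT differences are descriptions and not independent evidence. For each gene the brightest probe set by its mean over the 8 arrays was to be kept, and each of the 7 had exactly 1. All 7 lay at or above the median level of all genes (3.61 on the log2 scale) and were therefore among the 11090 genes tested.

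RNA came from male Abhd15 KO mice (n = 5) and male wild-type (WT) mice (n = 3), all C57BL/6J, 14 weeks of age and fed normal chow. The animals of both groups had gone without food overnight and had eaten chow again for 1 h when the tissue was frozen. Each mouse gave 1 Affymetrix Mouse Gene 2.0 ST array from 200 ng of RNA. For the allele, the cells that carry the deletion and the clock time at which each mouse was killed, the sources used here give nothing. All levels below are log2 values made by RMA, an array procedure that corrects background, normalizes between arrays and summarises the probes of a probe set, so a difference of 1 is a doubling.

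In the clock of mammals, CLOCK or its relative NPAS2 pairs with BMAL1, the product of Arntl, and the pair activates genes that carry E-boxes, among them the Per and Cry genes and the REV-ERB genes themselves. PER and CRY proteins then repress this pair. In a further loop, REV-ERB proteins repress and ROR proteins activate genes with a shared response element, of which Arntl is the best known, so that Arntl and Nr1d1 transcripts cycle in opposite phase. REV-ERBs bind haem and recruit a corepressor complex with the histone deacetylase HDAC3, and in fat and liver they also act on genes of lipid metabolism.

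The RefSeq promoter windows of the 7 genes (build GRCm38.p6, 250 bases before to 50 bases after an annotated start) were read for the letters that these factors are known to bind. All 7 genes had at least 1 window, 10 windows in all. Of the 3 windows shown, that of Arntl is shown for the receptor element, and those of Cry1 and Nr1d1 for E-boxes. Of 2 overlapping Arntl windows, 1 (chr7:113207261-113207560, plus strand), the one shown, held the receptor motif AGGTCA preceded by T (TAGGTCA), beginning at base 31 after the start, and the other held none of the letters searched. The Cry1 window (chr10:85185005-85185304, minus strand) held the canonical E-box CACGTG at base -60 and, read on the other strand, the variant CACGTT at base -79. The Nr1d1 window (chr11:98775328-98775627, minus strand) held the variant CACGTT on the other strand at base -28. Each is written 5′ to 3′ in the direction of the gene, with the matches in capitals.
Arntl: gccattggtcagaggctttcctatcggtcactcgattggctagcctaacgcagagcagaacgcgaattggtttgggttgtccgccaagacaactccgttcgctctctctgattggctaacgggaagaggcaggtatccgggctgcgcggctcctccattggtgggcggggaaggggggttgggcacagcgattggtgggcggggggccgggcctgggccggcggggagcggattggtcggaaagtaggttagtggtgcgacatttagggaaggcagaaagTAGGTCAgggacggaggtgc
Cry1: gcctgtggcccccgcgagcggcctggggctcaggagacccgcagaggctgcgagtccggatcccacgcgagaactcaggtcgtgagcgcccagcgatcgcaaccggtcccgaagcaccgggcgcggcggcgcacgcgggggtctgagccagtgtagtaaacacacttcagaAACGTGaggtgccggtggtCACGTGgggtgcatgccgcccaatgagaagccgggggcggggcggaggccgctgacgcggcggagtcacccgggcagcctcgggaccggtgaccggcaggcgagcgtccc
Nr1d1: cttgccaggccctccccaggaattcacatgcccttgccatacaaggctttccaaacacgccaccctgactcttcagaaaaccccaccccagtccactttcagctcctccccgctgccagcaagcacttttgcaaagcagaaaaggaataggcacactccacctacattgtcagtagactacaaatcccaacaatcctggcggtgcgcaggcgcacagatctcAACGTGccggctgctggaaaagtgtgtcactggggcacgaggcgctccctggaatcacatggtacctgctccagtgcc

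Both strands were searched, and TAGGTCA is by construction also a match to AGGTCA. Among all 32851 promoter windows of the same length, AGGTCA was found in 16.3%, TAGGTCA in 2.61%, CACGTG in 7.15% and CACGTT in 4.68%. AGGTCA also occurred in the Nr1d2 window (base -77) and, on the other strand, in 1 of the 3 Clock windows (base -119). The D-box TTATGNAA, which 3.38% of all windows held, was in none of the 10, and the windows of Rora and Npas2 held none of the letters searched. Such matches describe the windows only.

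Before the clock genes, the arrays themselves are described. Between arrays, Pearson's r over the probe sets was 0.962 to 0.978, and array medians lay between 2.93 and 3.12. The median over tested genes was lowest in KO 5, at 5.929 against 6.035 to 6.0675 on the other arrays. The adipocyte markers Fabp4 (12.71 to 12.84) and Adipoq (8.57 to 9.90) were bright on all 8 arrays. Adipoq was lowest in KO 5, and on every other array it was 9.56 or more. Of the 11 adipocyte markers tested, 3 were higher and 8 lower in KO, none past an adjusted p of 0.05 in limma and 3 at an unadjusted p under 0.05, where 10.5% of all tested genes met this mark. In these 3 the groups did not overlap: the lipid droplet gene Plin4 (log2 fold change -0.51) and the adipogenic factor Pparg (-0.47) were lower, and the factor Cebpa (0.32) was higher. Of all tested genes, 8.53% had no overlap (2.99% with all KO arrays above and 5.54% with all below). Of the Abhd15 probe sets, the brighter averaged 5.89 ± 0.271 in KO (SD, n = 5) and 6.32 ± 0.157 in WT (SD, n = 3), and KO 3 (6.27) lay inside the WT range. The dimmer averaged 3.54 ± 0.399 in KO (SD, n = 5) and 4.235 ± 0.236 in WT (SD, n = 3), and KO 3 (4.19) again lay inside the WT range. Where the probes of Abhd15 lie relative to the deleted part is not given, so these values do not check the labels. The 12 immediate early genes, which respond fast to stimulation or handling, averaged 5.16 to 6.86 in KO and 4.96 to 5.32 in WT, and KO 1 (6.84), KO 2 (6.86) and KO 3 (5.98) stood above the other arrays. The single erythroid marker measured, Slc4a1, read 4.72 in KO 1 and 5.28 in KO 2, against 2.61 to 3.11 elsewhere. The 7 testis markers measured averaged 3.58 to 4.91 in KO and 3.38 to 6.50 in WT, highest in WT 1, WT 2 (5.29) and KO 4, and the 9 epididymal and seminal vesicle markers averaged 4.35 in KO 4 and 3.62 in WT 1 against 1.98 to 2.30 in the others. Of 10 endothelial markers 2 were higher and 8 lower in KO (5 of the lower ones and 1 of the higher ones, Cldn5, at an unadjusted p under 0.05 in limma, where 6.46% of all tested genes were lower and 4.04% higher), with list means of 7.35 to 7.66 in KO and 7.58 to 7.96 in WT. In bulk tissue, fewer cells of a type and less RNA per cell cannot be told apart.

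Nr1d1 was the member that set the genotypes apart. Nr1d1, the REV-ERB with the stronger rhythm in most tissues, read 8.23, 8.23, 8.42, 7.87 and 7.90 in the KO mice (KO 1 to KO 5), against 7.11, 7.38 and 6.97 in the WT mice. Every KO value lay above every WT value, and the gap between the nearest mice (KO 4 and WT 2) was larger than the SD of either group. Means were 8.13 ± 0.234 in KO (SD, n = 5) and 7.15 ± 0.213 in WT (SD, n = 3). The log2 fold change was thus 0.98 (SE 0.165, 95% interval 0.61 to 1.34), or 1.97-fold. By unadjusted p, Nr1d1 ranked 12 of 11090 genes in limma, but its adjusted p of 0.134 did not pass the threshold of 0.05, which 0 of 11090 genes (0%) passed and 1164 met unadjusted. With array weights, which count discordant arrays less, its adjusted p was 0.0305 (log2 fold change 1.03), 1 of 40 genes that passed in that fit. Over all alternatives its fold change stayed between 0.73 and 1.14 on the log2 scale. The lowest of these was the fit without KO 1, KO 2 and KO 3, the arrays with high immediate early genes, and without KO 1 and KO 2 alone it was 0.91. Without WT 1 and KO 4, the arrays with the highest epididymal and seminal vesicle markers, it was 1.02, in a fit that kept WT 2 with its testis transcripts.

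The other receptors differed less between the genotypes. Nr1d2, the partly redundant paralogue of Nr1d1, read 5.94, 6.17, 6.53, 6.20 and 6.05 in KO and 5.70, 6.06 and 6.14 in WT, and 3 of 5 KO mice exceeded the highest WT mouse. Its log2 fold change of 0.21 (SE 0.164) had a 95% interval of -0.15 to 0.58, so a difference as large as that of Nr1d1 lay outside the interval. It was 0.08 without WT 1 and 0.13 without KO 3. Rora, the activator that competes with REV-ERBs for the same element, had the smallest spread of the 7 genes. It averaged 5.45 ± 0.0590 in KO (SD, n = 5) and 5.54 ± 0.0786 in WT (SD, n = 3), a log2 fold change of -0.08 (95% interval -0.33 to 0.16), which was -0.13 without WT 1 and -0.04 with quantile normalization. Rorb, a relative of Rora, lay below the level tested, at 2.45 to 2.70 in KO and 2.43 to 3.14 in WT.

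**Figure D1:**
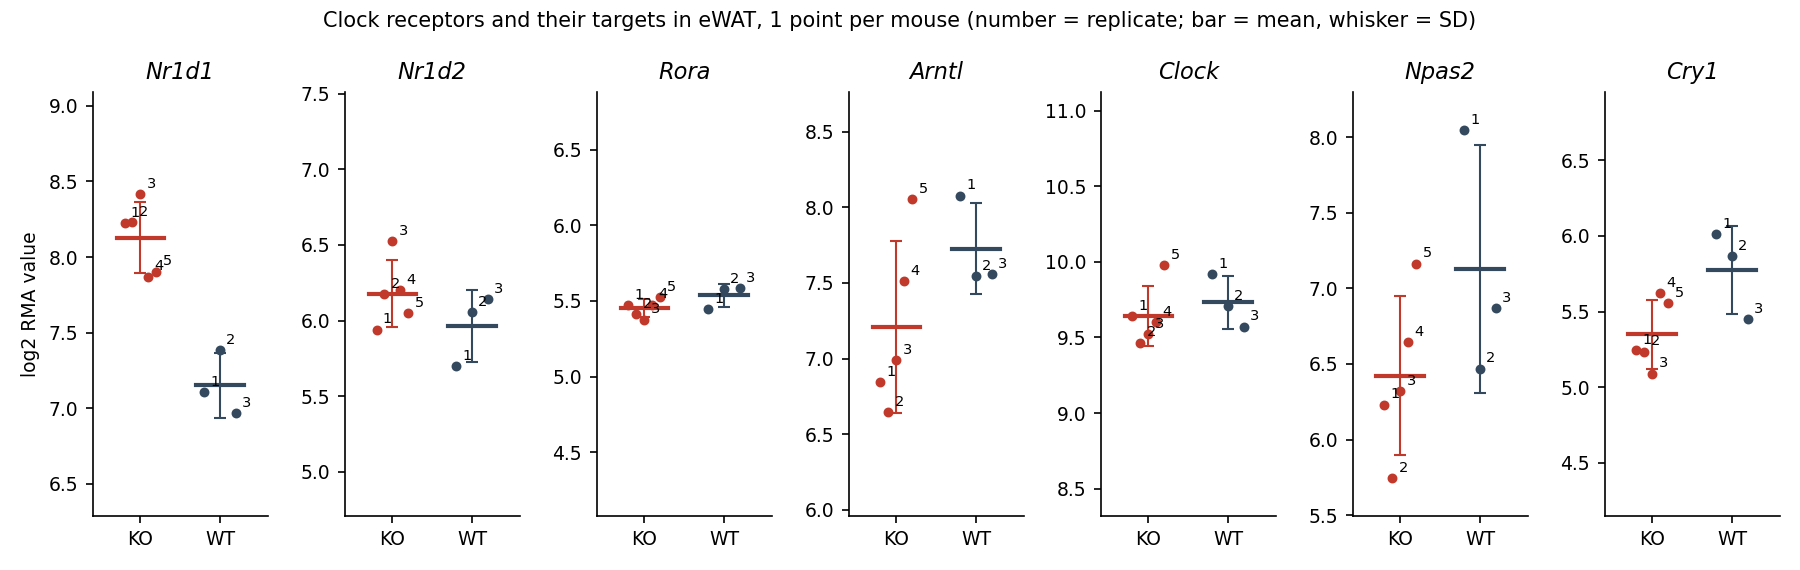
Log2 RMA values of the 7 clock genes, 1 point per mouse, KO left and WT right, with the replicate number beside each point, the mean as a bar and the SD as a whisker. All panels span the same number of log2 units, and the 5 KO mice sit above the 3 WT mice for Nr1d1, whereas in every other panel the groups overlap.

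Of the genes that REV-ERBs repress, none passed the adjusted threshold. Arntl, whose product is the indispensable partner of CLOCK, read 6.84, 6.65, 6.99, 7.51 and 8.05 in KO and 8.08, 7.54 and 7.56 in WT. KO 1, KO 2 and KO 3 lay well below the lowest WT mouse, KO 4 lay just under it, and KO 5 was as high as WT 1. Means were 7.21 ± 0.571 in KO (SD, n = 5) and 7.73 ± 0.303 in WT (SD, n = 3). That is -0.52 on the log2 scale (SE 0.300, adjusted p = 0.571 in limma). Without KO 5 it was -0.73 (adjusted p = 0.227), without WT 1 it was -0.34, and without KO 1, KO 2 and KO 3 it turned to 0.056 (adjusted p = 0.945). These are the mice with the highest immediate early genes, whose part in the result was not tested.

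Npas2, a relative of Clock that can take its place, read 6.23, 5.75, 6.32, 6.65 and 7.16 in KO and 8.05, 6.47 and 6.87 in WT. Its log2 fold change of -0.71 (SE 0.376, adjusted p = 0.545 in limma) was -0.25 without WT 1, the array with the most testis transcripts, whose part was not tested. It was -0.22 without KO 1, KO 2 and KO 3. Cry1, a repressor of the CLOCK and BMAL1 pair, read 5.25, 5.24, 5.09, 5.62 and 5.55 in KO and 6.01, 5.87 and 5.45 in WT, and 3 of 5 KO mice lay below all WT mice. Its log2 fold change was -0.43 (SE 0.175, adjusted p = 0.434), and -0.19 without KO 1, KO 2 and KO 3. Clock itself read 9.64, 9.47, 9.52, 9.60 and 9.98 in KO and 9.92, 9.71 and 9.57 in WT, and overlapped throughout. Its log2 fold change was -0.09 (95% interval -0.43 to 0.24), and its sign turned without WT 1 (0.0031), without WT 1 and KO 4 (0.013) and without KO 1, KO 2 and KO 3 (0.058).

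Counted together, 2 of the 7 genes were higher and 5 lower in KO, where 44.8% of all tested genes were higher. Members with an unadjusted p under 0.05 in limma numbered 2 of 7, Nr1d1 higher and Cry1 lower, where 10.5% of all tested genes met this mark (4.04% higher and 6.46% lower). This count was 4 with the replicate number as a block (Nr1d1, Arntl, Npas2 and Cry1), a fit that rests on KO 1 to KO 3, and in that fit 1997 of 11090 genes met the mark. It was 3 with array weights (Arntl added) and 4 without KO 5, where 1873 and 1596 of 11090 genes met the mark. Without KO 1, KO 2, KO 3 or WT 1 the count was 1, where 1076, 890, 1149 and 745 genes met it. The groups did not overlap for 1 member, Nr1d1, where 8.53% of tested genes had no overlap (2.99% with all KO arrays above and 5.54% with all below). The median log2 fold change of the 7 was -0.09, and that of all tested genes was -0.03. Since the genes were chosen with this contrast known, nothing is read from these shares.

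**Figure D2:**
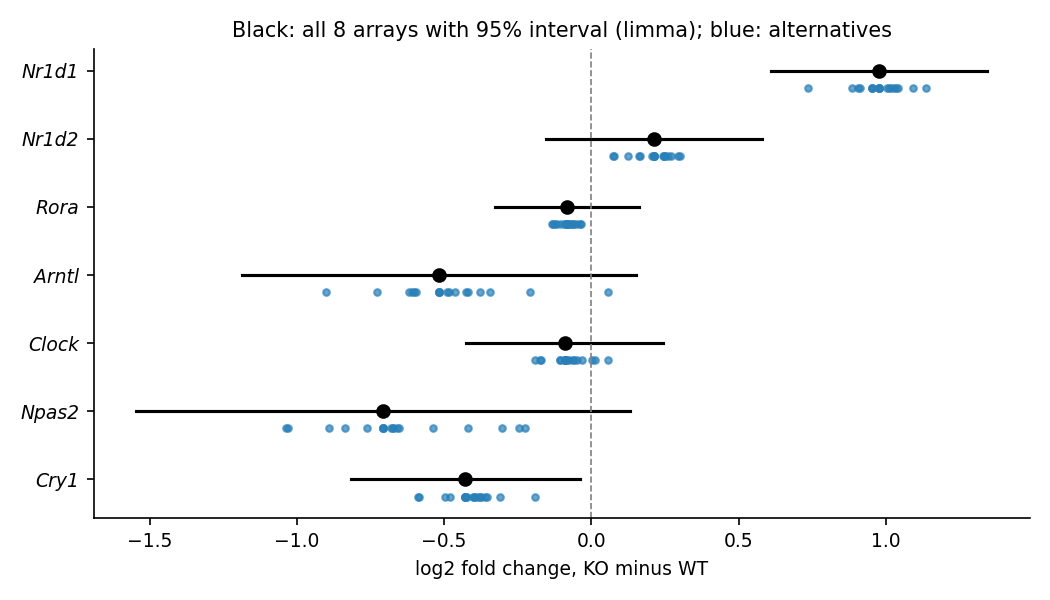
Log2 fold change (KO minus WT) of each clock gene with all 8 arrays (black point, limma's 95% interval as a line) and under each of the 19 alternatives (blue points). The points of Nr1d1 lie between 0.73 and 1.14, whereas those of Arntl and Clock fall on both sides of 0.

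How Nr1d1 related to the genes it represses was examined mouse by mouse. Because Nr1d1 separated the genotypes, each gene's genotype mean was first taken out, so that a correlation uses only the spread among mice of 1 genotype. Over the 8 mice, Nr1d1 and Arntl had a Pearson r of -0.67 (exact permutation p = 0.113, two-sided, arrays exchanged within genotype) and a Spearman rho of -0.69 (exact permutation p = 0.110). Among the KO mice, KO 3 had the highest Nr1d1, and KO 4 and KO 5, the KO mice with the least Nr1d1, had the most Arntl. Without KO 3 and KO 4, the mice farthest from the median, r was -0.67. Nfil3 (E4BP4), a repressor of D-box genes and itself a REV-ERB target, had the largest r with Nr1d1 of the 7 genes set against it, at r = -0.75 (exact permutation p = 0.0625) and rho = -0.83 (exact permutation p = 0.0417), and r = -0.64 without KO 3 and KO 4.

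The relation was weaker for Npas2 (r = -0.56, rho = -0.50), for Cry1 (r = -0.42, rho = -0.52) and for Clock (r = -0.39, rho = -0.31), with exact permutation p-values of r of 0.183, 0.324 and 0.401. Leaving out 1 mouse moved r for Clock between -0.68 (without WT 3) and -0.06 (without KO 5). For Cry1, r was 0.01 without KO 3 and KO 4 and -0.98 without WT 3. Nr1d1 with Rora (r = -0.47, rho = -0.48) and with Nr1d2 (r = 0.32, rho = 0.33) gave exact permutation p-values of r of 0.243 and 0.474, and Nr1d2 with Arntl (r = -0.34, rho = -0.24) gave 0.457. For Rora, r was -0.77 without WT 2 and -0.16 after centring each array on its median. Of these 8 relations none passed after Benjamini-Hochberg adjustment over the 8 (smallest adjusted p of r, 0.45, by exact permutation, and of rho, 0.333). All 5 relations of Nr1d1 with the genes it represses had a negative sign, as had that with Rora. Arntl, Clock, Npas2 and Cry1 also went together among themselves (r of 0.60 to 0.87 within genotype), so the 5 signs are not separate observations. The share of all tested genes with a negative r to Nr1d1 was not computed, and nothing is read from these signs. The immediate early genes also varied among the KO mice (5.16 to 6.86), and their part in these relations was not tested.

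**Figure D3:**
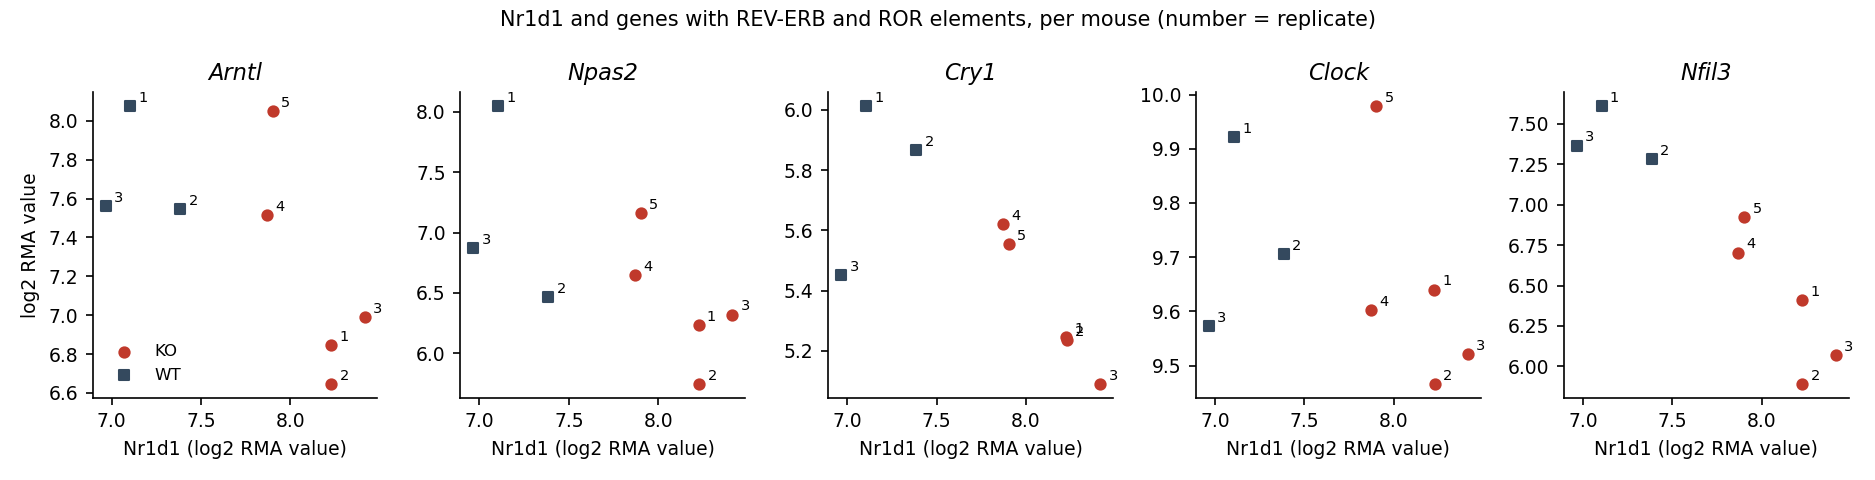
Log2 RMA values of Nr1d1 (horizontal) against Arntl, Npas2, Cry1, Clock and Nfil3 (vertical, each with its own scale), 1 point per mouse, with KO as circles, WT as squares and the replicate number beside each. KO 1, KO 2 and KO 3 combine the highest Nr1d1 with the lowest Arntl (6.65 to 6.99) and Nfil3 (5.89 to 6.41), and KO 4 and KO 5 lie between them and the WT mice for Nfil3.

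Among the activators of the clock, Arntl and Npas2 went together from mouse to mouse. All 21 pairs of the 7 genes were computed in the same way, after the values had been seen. Arntl and Npas2 had r = 0.87 within genotype (exact permutation p = 0.00139, the smallest that 720 orders allow, adjusted p = 0.0292 over the 21 pairs), and rho = 0.79 (exact permutation p = 0.00694, adjusted p = 0.146). Leaving out any 1 mouse left r between 0.82 and 0.94, and without KO 5 and WT 1, the mice farthest from the median of Arntl, it was 0.85 (exact permutation p = 0.104). It was the only pair that passed, and it did so by r alone. Such a likeness was not particular to clock genes. Over all 8 arrays Npas2 ranked 103 among the 10465 genes compared with Arntl. Genes outside the set had a larger r with Arntl within genotype, such as Atp13a3 (0.98) and Ubtf (0.97). Arntl with Clock had r = 0.86 and rho = 0.64 (exact permutation p of 0.0208 and 0.110), but r was 0.39 without KO 5 and WT 1, so that relation rested on those mice. Clock with Npas2 had r = 0.82 and rho = 0.71 (exact permutation p of 0.0292 and 0.0792), and 0.28 without the same mice. Arntl with Cry1 had r = 0.72 and rho = 0.60 (exact permutation p of 0.0681 and 0.128), and r = 0.62 without them.

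**Figure D4:**
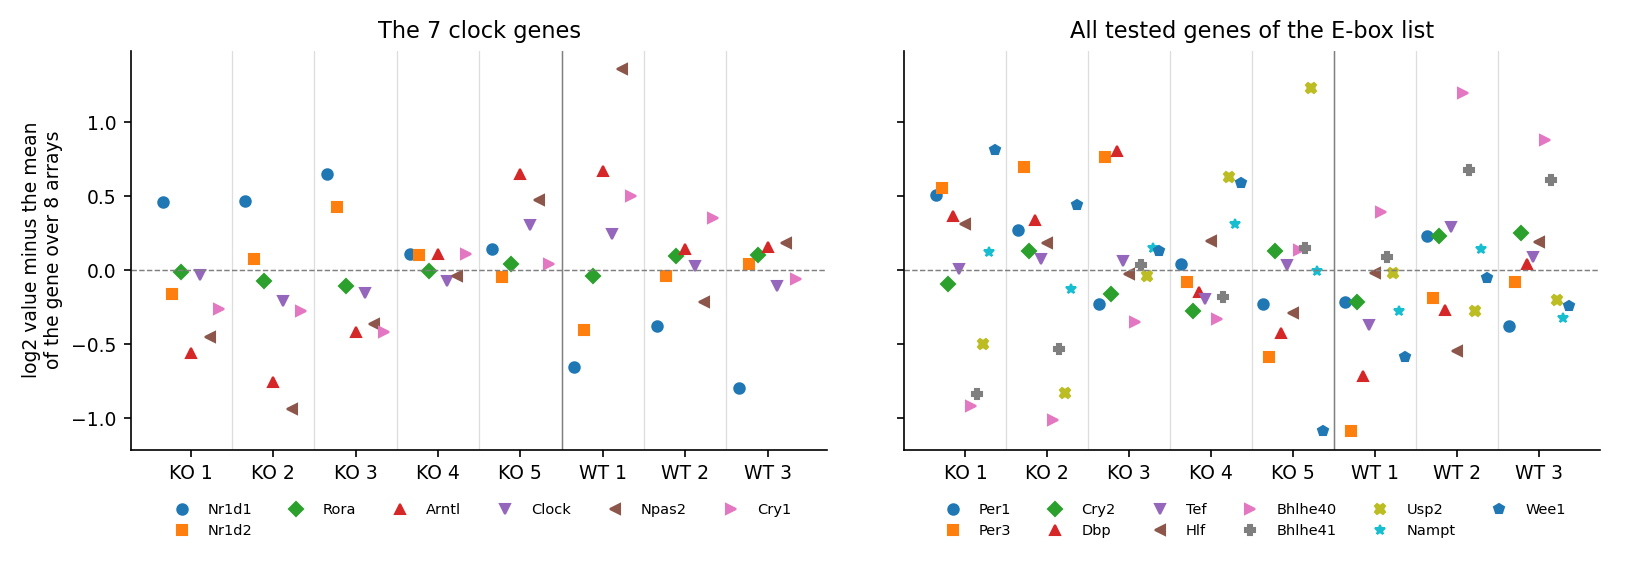
Each gene's log2 value minus its mean over the 8 arrays, by mouse, for the 7 clock genes (left) and for all 11 tested genes of the E-box list (right). KO 1, KO 2 and KO 3 lie below 0 for Arntl, Npas2, Clock and Cry1 and above 0 for Nr1d1, while among the E-box genes they lie above 0 for Per3 and Dbp but below 0 for Bhlhe40 and Usp2.

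E-box genes outside the set were counted as well, from a list chosen with earlier results known. Of 13 genes, 11 were tested, 7 higher and 4 lower in KO, with a median log2 fold change of 0.20. None passed an adjusted p of 0.05 in limma, and 2, both lower, had an unadjusted p under 0.05. Of all tested genes, 10.5% met this unadjusted mark (6.46% lower in KO), and 44.8% were higher in KO. Per2 was not analysed here, and Ciart lay below the level tested. Per3, a Period gene, read 6.39, 6.53, 6.59, 5.75 and 5.24 in KO and 4.74, 5.65 and 5.75 in WT (log2 fold change 0.72, adjusted p = 0.494 in limma). Dbp, an activator of D-box genes, read 5.80, 5.77, 6.23, 5.28 and 5.01 in KO and 4.72, 5.16 and 5.47 in WT (log2 fold change 0.50, adjusted p = 0.549). In both genes KO 1, KO 2 and KO 3 lay above all WT mice, KO 5 lay within the WT range, and WT 1 was lowest. Without WT 1 the log2 fold change was 0.40 for Per3 and 0.30 for Dbp, and without KO 1, KO 2 and KO 3 it was 0.12 for Per3 and 0.03 for Dbp. The E-box repressor genes Bhlhe40 and Bhlhe41 had lower means in KO, neither past the adjusted threshold. Bhlhe40 read 6.38 to 7.52 in KO and 7.78 to 8.58 in WT (log2 fold change -1.32, adjusted p = 0.172 in limma). Bhlhe41 was at -0.73 (adjusted p = 0.346), and its groups overlapped, with KO 5 (5.85) above WT 1 (5.79). Without KO 1, KO 2 and KO 3 Bhlhe40 was at -0.92 and Bhlhe41 at -0.47.

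The list of further genes with REV-ERB and ROR elements had 6 of 13 genes tested, 1 higher and 5 lower, with a median log2 fold change of -0.16. Of all tested genes, 44.8% were higher in KO, 10.5% had an unadjusted p under 0.05 in limma and 5.54% had all KO arrays below WT. None of the 6 passed the adjusted threshold, and 1 had an unadjusted p under 0.05. That gene, Nfil3, read 6.41, 5.89, 6.07, 6.70 and 6.92 in KO and 7.61, 7.28 and 7.37 in WT, with no overlap (log2 fold change -1.02, SE 0.230, adjusted p = 0.213 in limma). Without KO 1, KO 2 and KO 3 Nfil3 was at -0.61. With array weights Nfil3 passed (adjusted p = 0.0463 in limma), as did Bhlhe40 (0.0300), in a fit that 40 of 11090 genes passed. Ccl2, a chemokine (-0.35), Insig2, a regulator of sterol sensing (-0.26), and Nrip1, a nuclear receptor corepressor (0.29), had adjusted p-values of 0.641 to 0.834. These values rested on single arrays: Ccl2 was -0.75 without KO 1, -0.06 without WT 3 and 0.05 with the replicate block, and without WT 1 Nrip1 was 0.07 and Insig2 -0.12. Elovl3, Ucp1, Il6 and Fabp7 lay below the level tested.

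No gene of the machinery around the receptors passed the adjusted threshold. Of 14 cofactors 12 were tested, 5 higher and 7 lower, with a median log2 fold change of -0.07. In the fit as planned none passed even at an unadjusted p of 0.05. Hdac3, the deacetylase that REV-ERBs recruit, was nearest at 0.25 (adjusted p = 0.588 in limma), followed by the ROR coactivator Ppargc1a (0.30), Nrip1 and the deacetylase Hdac1 (-0.21). Without KO 5 Hdac3 was at 0.36 (unadjusted p = 0.00587, adjusted p = 0.190 in limma) and Hdac1 at -0.11. In that fit 1596 of 11090 genes had an unadjusted p under 0.05. Hdac3 also met this mark with array weights (0.31) and, with Ppargc1a and Nrip1, in the replicate block (0.34), where 1873 and 1997 genes did. Of 18 kinases and ubiquitin ligases that act on clock proteins, 13 were tested, 5 higher and 8 lower (median -0.02), and none passed the adjusted threshold. Prkaa2 (higher) and Huwe1 (lower) had an unadjusted p under 0.05 in limma and groups that did not overlap. Of all tested genes, 10.5% met this mark and 8.53% had no overlap. Prkaa2, a catalytic subunit of the energy sensor AMPK that phosphorylates cryptochrome, read 6.12 to 6.76 in KO and 5.88 to 5.99 in WT. Its log2 fold change was 0.48 (SE 0.169, adjusted p = 0.368 in limma). Without KO 1, KO 2 and KO 3 the log2 fold change was 0.19 for Prkaa2 and -0.31 for Huwe1. Huwe1, a ubiquitin ligase of REV-ERBα, read 8.49 to 8.78 in KO and 8.87 to 8.91 in WT (-0.28, adjusted p = 0.440). Mycbp2, another such ligase (0.24), and Prkaa1 (-0.14) followed, and their signs were not stable. Without WT 1 Mycbp2 was at -0.0082, and with the replicate block Prkaa1 was at 0.03.

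Genes of haem, the ligand of REV-ERBs, included 11 tested of 12, 7 higher and 4 lower in KO (median 0.08), none past the adjusted threshold and 3 at an unadjusted p under 0.05, where 10.5% of all tested genes met this mark and 8.53% had no overlap. Alad, an early enzyme of haem synthesis, read 7.29 to 7.96 in KO and 6.82 to 7.14 in WT, with no overlap (log2 fold change 0.59, SE 0.165, adjusted p = 0.295 in limma). Urod, a later enzyme, was at 0.37 (adjusted p = 0.352) and also without overlap, and Ppox at 0.32 (adjusted p = 0.495). Hmox1, which breaks haem down, read 6.80 to 7.28 in KO and 7.51 to 8.19 in WT, with no overlap in the other direction (-0.59, SE 0.187, adjusted p = 0.335). Its WT 1 value of 8.19 stood apart from 7.52 in WT 2 and 7.51 in WT 3. Without WT 1 Hmox1 was at -0.36, Urod at 0.29, Ppox at 0.20 and Alad at 0.56. Alas1, the first and rate-limiting enzyme, whose gene REV-ERBα can repress through Ppargc1a, was at 0.05 (adjusted p = 0.932) and is named after its values were seen.

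**Figure D5:**
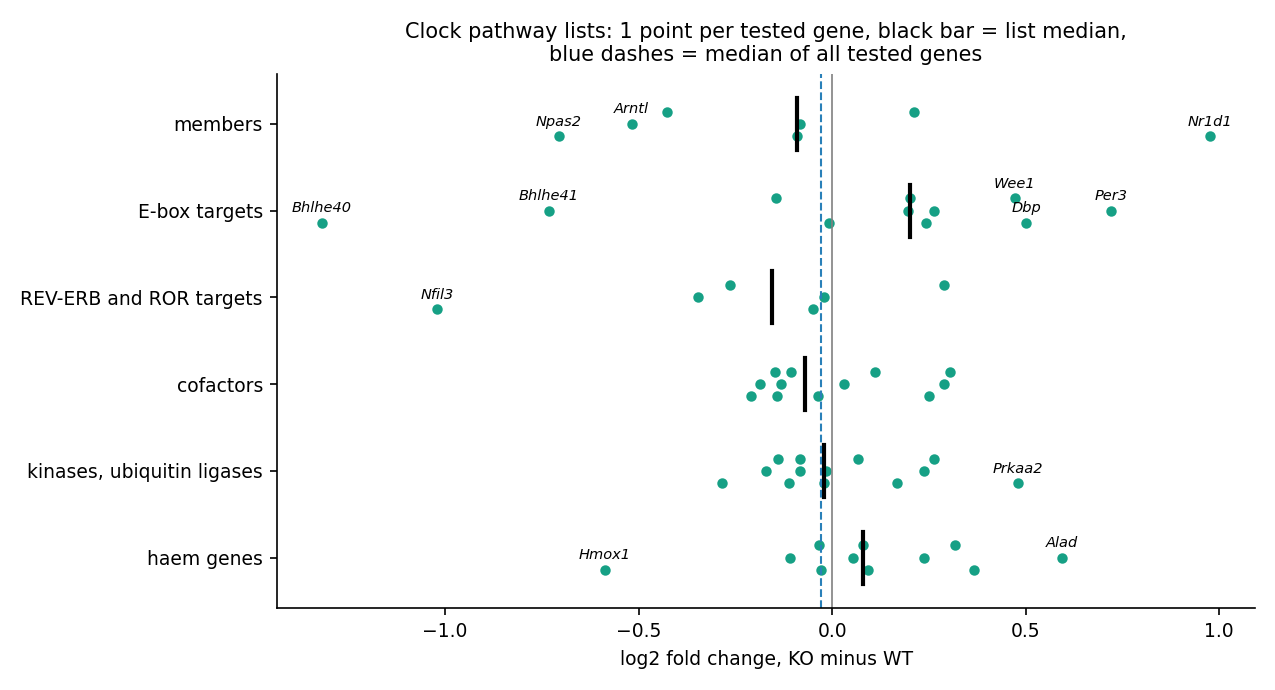
Log2 fold change (KO minus WT) of each tested gene in the 7-gene set and in 5 lists around it, with the list median as a black bar and the median of all tested genes (-0.03) as blue dashes. Names are given beyond 0.45 in either direction, and the cofactors lie closest together, between -0.21 and 0.30.

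Likeness of pattern was measured by Pearson's r over all 8 arrays among 10465 tested genes (predicted genes and small RNAs left out), genotype difference included, as a description. Nearest to Nr1d1 were the ERK phosphatase Dusp5 (r = 0.98), Naif1, Cuta, the condensin subunit Ncapd3 and Usf3 (down to 0.95), and most opposite were Mif4gd (-0.97), Ncdn, the inositol phosphate kinase Itpkc, the elongation factor partner Eaf1 and the small GTPase Rab44 (-0.96). Nearest to Arntl were the transporter Atp13a3 (0.98), the ribosomal RNA gene factor Ubtf, the SMAD repressor Skil, Yrdc and Obi1 (0.96), and most opposite were Fam120c (-0.99), the adipocyte galectin Lgals12, the nuclear pore gene Ndc1, the chromatin remodeller Smarca2 and Abca8a (-0.98). Within the set, Npas2 ranked 103 and Clock 227 among the genes most like Arntl, while Cry1 ranked 388 among those most opposite to Nr1d1. The array medians and the immediate early genes vary over the same 8 arrays, and their part in these likenesses was not tested.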

How the data were processed

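Gene expression in eWAT of 8 male mice (5 Abhd15 KO, 3 WT) was measured on 1 Affymetrix array per mouse, and genotype and replicate number came from the sample titles. The authors deposited log2 values per probe set. RMA and the package oligo are named per the submitters' processing notes and Expression Console in the series design text, while versions, filters and a build are not stated in those sources. The number of arrays limits the precision. Values were used as deposited.

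Of 41345 probe sets, 23521 had 1 symbol in the platform annotation, of which 23328 matched the RefSeq gene table (GRCm38.p6) by Entrez identifier, and 1814 had several symbols and were left out. The probe set of highest mean was kept per gene (22180 genes), and genes at or above the median level were tested (11090). The genotypes were compared with limma 3.58.1 (R 4.3.3, lmFit and eBayes, two-sided). Benjamini-Hochberg adjustment ran over the 11090 genes, and every p of a gene that is not called exact is limma's. Relations between genes used deviations from genotype means and exact permutation over 720 orders of arrays within genotype (Python 3.11.15, numpy 2.4.6). Both procedures were tested on simulated data. Figures used matplotlib 3.10.9.

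The members and lists were chosen with earlier results of these data known. Named genes are the 7 members, up to 4 tested genes of smallest unadjusted p per list, the 5 genes most and least like Nr1d1 and Arntl (predicted genes and small RNAs left out), and others said to be below the level tested, not analysed, or described as markers. Alas1, Usp2 and Wee1 were outside this rule. Alternatives covered scaling, array weights, the prior, the level filter, probe sets, a replicate block and left-out arrays. The deviations of same-numbered KO and WT arrays correlated at 0.133, 0.103 and 0.192 over tested genes. All were above 0.1, so the numbers were taken as pairing for the block alternative. Differently numbered arrays ranged from -0.244 (KO 1 with WT 3) to 0.105 (KO 1 with WT 2), so WT 2 deviated with KO 1 as it did with KO 2. The sample titles do not say what the numbers stand for, and these correlations do not establish a pairing.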

Additional observations from a re-analysis of the deposited data

Results flagged for a closer look

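Of 26 named genes and members examined in the KO group, 3 had 1 mouse far from the other 4, and chance flags about 1 in 20 such groups. Hdac3 read 7.72 in KO 5, against 8.21 for the nearest KO mouse, and Hdac1 read 7.73 in KO 5, against 8.17. Hmox1 read 6.80 in KO 3, against 7.22. None of the 7 clock genes had such a value.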

How the results depend on the processing

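Over the 19 alternatives, 128 of 133 fold changes of the 7 genes kept their direction and their side of the adjusted threshold. Nr1d1 passed with array weights (1.03). Clock turned to 0.0031 without WT 1, to 0.013 without WT 1 and KO 4 and to 0.058 without KO 1, KO 2 and KO 3, a fit chosen after seeing the data in which Arntl also turned (0.056). Leaving out 1 array moved Clock between -0.18 and 0.0031. Members with an unadjusted p under 0.05 in limma were 2 in the fit as planned, where 1164 of 11090 genes met this mark. They became 4 with the replicate block and 3 with array weights, where 1997 and 1873 genes met it. The count was 1 with centring on the array median (978 genes) and with quantile normalization (1154). It was also 1 in each fit that left out several arrays: WT 1 with KO 4 (732), KO 1 with KO 2 (1052), and KO 1 to KO 3 (1238). When 1 array was left out it was 1 to 4, where 745 to 1596 genes met the mark. The single member without overlap became 2 without WT 1 and KO 4, where 2069 of 11090 genes had no overlap, against 946 with all arrays. That count was 1 to 2 when 1 array was left out, where 1101 to 1626 genes had no overlap. Array weights gave 2 calls among the 51 tested genes of the lists, in a fit that 40 of 11090 genes passed. The fit as planned gave 0 in limma, for the lists and for all tested genes. Of 80 relation values, 78 kept their direction and side, while Nr1d1 with Nr1d2 ranged from -0.13 (without KO 3) to 0.58 and Nr1d1 with Cry1 from -0.98 (without WT 3, adjusted p = 0.0333 by exact permutation) to -0.20 when 1 array was left out. The replicate block changed no call at the adjusted threshold among the 7 genes. The cause of these changes was not tested. The 8 arrays and 720 within-genotype orders limit what can be resolved.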

Other observations

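Usp2, a deubiquitinase whose gene carries E-boxes, was picked after its values had been seen because it varied far more among the KO mice than among the WT mice. It read 6.27, 5.95, 6.74, 7.40 and 8.01 in KO and 6.75, 6.50 and 6.57 in WT, an SD of 0.837 in KO (n = 5) and 0.130 in WT (n = 3), with a log2 fold change of 0.26 (adjusted p = 0.852 in limma) that turned to -0.29 with the replicate block. KO 4 and KO 5 were highest, as they were among the KO mice for Arntl and Npas2, and KO 2 was lowest for all 3 genes. Wee1, a cell cycle kinase gene with E-boxes, also picked after the fact, read 5.76, 5.38, 5.07, 5.54 and 3.85 in KO and 4.36, 4.89 and 4.70 in WT, with KO 5 apart from the other KO mice.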
